A study of Mus musculus with 4 samples.

Results

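The 10 genes described here encode the 3 isoforms of transforming growth factor beta (TGF-beta), its 3 receptors and the 4 latent TGF-beta binding proteins. They were chosen by name from a table of 16416 genes. All 10 were found once in the table, and all 10 were above 1 CPM, a count relative to library size, in every library. The cells were synovial fibroblasts that had grown out of mouse shoulder joint capsule removed 1 week after the shoulder had been immobilized, and they were used at passage 2. One group was miR-26a -/- cells transfected with 10 nM miR-26a mimic (the mimic library), and another was miR-26a -/- cells transfected with 10 nM Silencer Negative Control (the negative-control library), with 24 h of transfection for both. The remaining groups were untransfected miR-26a -/- cells (the knockout library) and wild-type C57BL6/J cells (the wild-type library). Immobilization was shared by every group, since no library came from a shoulder that had been left mobile. Each group had 1 library, so differences below compare libraries and not conditions, no p-value is given, and how many mice or cultures stand behind a library is not stated in the labels. Mature miR-26a was not measured by these libraries, so the genotype labels and the uptake of the mimic were not checked with it.

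TGF-beta is made with a propeptide that stays bound to it and keeps it from its receptors. In most tissues this latent complex is joined to a latent TGF-beta binding protein (LTBP), which anchors it in the extracellular matrix until integrins, proteases or mechanical pull release the ligand. The freed ligand joins the type II receptor to the type I receptor, and SMAD proteins then carry the signal to the nucleus. In fibroblasts this pathway is known for raising matrix production and contractile proteins, as in fibrosis. MicroRNAs lower transcripts that pair with their seed, bases 2 to 8 from the 5′ end.

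The question of the series was which genes respond to miR-26a, so the microRNA is shown first and then the places where its seed can pair with these 10 genes. The capitals mark the seed in the microRNA. The mature sequence from RefSeq (GRCm38.p6) is the same at Mir26a-1, chr9:119031811-119031832 (+), and at Mir26a-2, chr10:126995543-126995564 (+), and the guide strand of the mimic in the labels is identical to it.
mmu-miR-26a-5p: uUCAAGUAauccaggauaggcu

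Sites were searched on the sense strand of annotated 3′ untranslated regions (GENCODE M21, GRCm38). The seed is shared with mmu-miR-26b-5p, so these sites are not particular to miR-26a. The letters TACTTGA pair with the whole seed, TACTTGAA adds an A after it, and ACTTGA, contained in both, pairs with bases 2 to 7 only. Of the 10 genes, 1 held the 8-base match, Ltbp2, and 1 held the 7-base match without the last A, Ltbp1. Tgfbr2 held ACTTGAA and also a 6-base match, and Tgfbr1 held a 6-base match. Tgfb1, Tgfb2, Tgfb3, Tgfbr3, Ltbp3 and Ltbp4 held none of these letters in the annotated regions. Among 15799 genes of the table with such a region, 4.84% held TACTTGAA, 11.25% TACTTGA, 16.7% ACTTGAA and 36% ACTTGA, each share including the longer matches. The strongest match of Ltbp2, Ltbp1 and Tgfbr2 is printed with its surroundings, and the capitals mark the bases that can pair, with the A after the seed where present. The Tgfbr2 site lies in a longer 3′ end that GENCODE gives and that runs past the RefSeq gene.
Ltbp2, chr12:84783486-84783515 (-): gggcaaataagTACTTGAAgccccttagag
Ltbp1, chr17:75390610-75390638 (+): ggagagatgtaTACTTGAgacactgcacc
Tgfbr2, chr9:116085535-116085563 (-): aagagagtagaACTTGAAgcctggacttt

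Libraries held between 17598763 and 19392655 estimated counts. Levels are given as deposited TPM, which are per transcript length and relative to library size. Log2 ratios were computed from counts scaled with TMM factors, which set libraries level over most genes, and the range in parentheses is an exact 95% binomial interval that covers counting error only. A gene was called higher or lower where its ratio reached 2-fold and its interval excluded 0, among genes measured at 1 CPM or more in either library. All 12 fibroblast markers were at or above 1 TPM in every library, with a summed level of 16135 TPM in the mimic, 14380 TPM in the negative-control and 16123 TPM in the knockout library, against 24166 TPM in wild type. All 15 macrophage markers were also at or above 1 TPM in every library, with sums of 31329, 31383, 32446 and 22006 TPM in the same order. The label names fibroblasts, and the macrophage sum was above the fibroblast sum in the 3 libraries of knockout cells and below it in the wild-type library. Of the macrophage sums, Lyz2 alone held 17807, 17286 and 18991 TPM in the mimic, negative-control and knockout libraries and 14913 TPM in wild type. Without Lyz2 the macrophage sum was below the fibroblast sum in every library. The most abundant of each list were S100a4, Col1a1, Col1a2 and Vim for fibroblasts, of which S100a4 and Vim are also known from macrophages, and Lyz2, C1qc, C1qb and Tyrobp for macrophages. Tie1, an endothelial receptor, was at 0 TPM in the 3 knockout-cell libraries, and summed markers of endothelial cells stayed between 3.73 and 4.49 TPM. Adipocyte markers summed to 62.64, 66.03 and 64.68 TPM in the mimic, negative-control and knockout libraries and to 247.01 TPM in the wild-type library. Of these sums, Fabp4 alone held 62.39, 65.48, 64.44 and 220.29 TPM in the same order. No other adipocyte marker reached 1 TPM in the knockout cells. Markers of T and B cells summed to at most 0.14 TPM.

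Tgfb1, the isoform best known in fibrosis, was the most abundant ligand in every library (Entrez Gene 21803, chr7:25687002-25705077, GRCm38.p6). It had 192.42 TPM in the mimic, 218.73 TPM in the negative-control and 218.3 TPM in the knockout library, against 185.59 TPM in wild type. The log2 ratio of the knockout to the wild-type library was 0.37 (0.30 to 0.43), which is 1.29-fold. The mimic library stood below both other libraries of knockout cells, with ratios of -0.19 (-0.26 to -0.13) to the negative control and -0.23 (-0.29 to -0.16) to the knockout. Of all measured genes, 41.1% had a ratio at least as large in either direction between knockout and wild type.

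Tgfb2, an isoform known from heart and limb development, was the least abundant ligand in every library (21808, chr1:186622787-186709697). It had 42.38, 36.13 and 40.81 TPM in the mimic, negative-control and knockout libraries, against 48.95 TPM in the wild-type library. Ratios were -0.13 (-0.22 to -0.04) for knockout to wild type and 0.22 (0.13 to 0.31) for mimic to negative control. The mimic and knockout libraries differed by 0.02 (-0.08 to 0.11), an interval that includes 0.

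Tgfb3, the isoform that palate fusion depends on, had the widest range of scaled counts among the 10 genes (21809, chr12:86056743-86079041). It had 73.09 TPM in the mimic, 40.71 TPM in the negative-control and 69.86 TPM in the knockout library, against 107.83 TPM in wild type. The negative-control library was the low one and the wild-type library the high one, while mimic and knockout lay close together between them. The ratio of mimic to negative control was 0.83 (0.74 to 0.93), or 1.78-fold, and 2.17% of measured genes had a ratio at least as large in either direction. That of negative control to knockout was -0.81 (-0.91 to -0.71), at least matched by 2.03% of measured genes. Mimic to knockout was 0.02 (-0.07 to 0.11), and knockout to wild type -0.50 (-0.58 to -0.42). Because these ratios share libraries, they are not independent of each other.

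**Figure D1:**
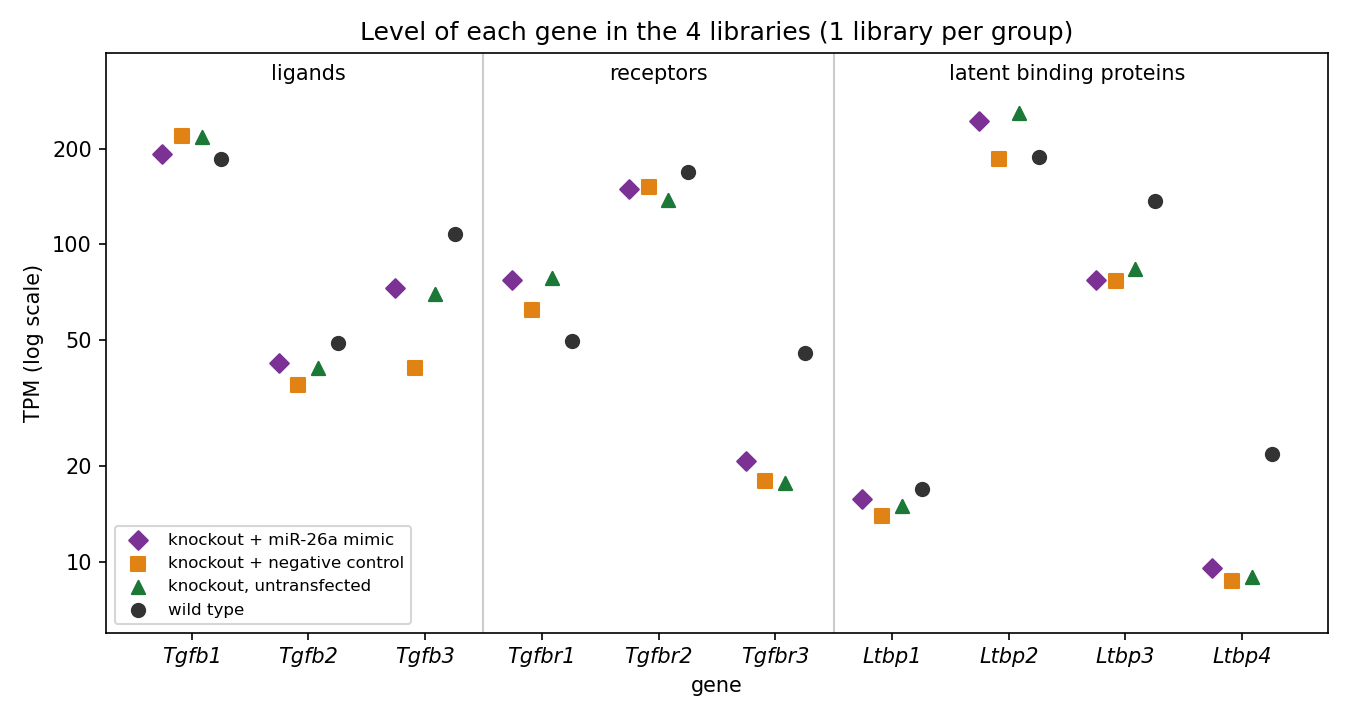
TPM of the 10 genes (log axis), with 1 point per library and groups told apart by colour and shape. Wild type stands apart from the 3 libraries of knockout cells for Tgfbr3, Ltbp3 and Ltbp4, and the negative-control library is the lowest for Tgfb3, at 40.71 TPM.

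Tgfbr1, the type I receptor kinase that phosphorylates SMAD proteins, was the receptor with the highest ratio in the knockout library (21812, chr4:47353222-47414926). It had 77.41 TPM in the mimic, 62.34 TPM in the negative-control and 78.08 TPM in the knockout library, against 49.68 TPM in wild type. All 3 libraries of knockout cells lay above the wild-type library. The ratio of knockout to wild type was 0.78 (0.71 to 0.85), or 1.72-fold, and 18.4% of measured genes had one at least as large. The negative-control library was lower than the knockout library by a log2 ratio of -0.36 (-0.42 to -0.29), and the ratio of mimic to knockout was -0.05 (-0.12 to 0.01).

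Tgfbr2, the type II receptor that binds the ligand and activates the type I receptor, was the most abundant receptor in every library (21813, chr9:116087695-116175363). Its levels were 149.58, 151.95 and 137.62 TPM in the mimic, negative-control and knockout libraries, against 169.1 TPM in the wild-type library. The ratio was -0.17 (-0.22 to -0.12) for knockout to wild type and -0.03 (-0.08 to 0.02) for mimic to negative control. For this gene, with ACTTGAA and 6-base matches, the mimic and the negative-control library lay within counting error of each other.

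Tgfbr3, or betaglycan, a co-receptor without kinase activity that presents Tgfb2 protein to the type II receptor, was lower in all 3 libraries of knockout cells (21814, chr5:107106567-107289629). It had 20.78 TPM in the mimic, 18.02 TPM in the negative-control and 17.77 TPM in the knockout library, against 45.65 TPM in the wild-type library. The ratio of knockout to wild type was -1.23 (-1.34 to -1.13), 0.426-fold, with 8.88% of measured genes showing a ratio at least as large. Among the knockout cells the levels lay close together, with 0.20 (0.08 to 0.32) for mimic to negative control and -0.01 (-0.14 to 0.11) for negative control to knockout. Whether fewer cells of a type or less RNA per cell stands behind such a level cannot be told apart in bulk libraries.

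Ltbp2 was the most abundant latent binding protein, and it is the member of its family known not to bind the latent complex but to associate with elastic fibres and fibrillin microfibrils (16997, chr12:84783212-84876558). Its levels were 244.42 TPM in the mimic, 185.54 TPM in the negative-control and 258.6 TPM in the knockout library, against 187.59 TPM in wild type. Knockout and mimic were the high libraries, while negative control and wild type were nearly level. The ratios were 0.59 (0.55 to 0.63) for knockout to wild type, 0.39 (0.35 to 0.42) for mimic to negative control and -0.51 (-0.55 to -0.48) for negative control to knockout. Mimic to knockout was -0.13 (-0.16 to -0.09). For this gene with the 8-base miR-26a match, the mimic library was above the negative control and slightly below the untransfected knockout cells.

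Ltbp1, which tethers latent TGF-beta to fibronectin and fibrillin-rich matrix, was low in every library (268977, chr17:75005480-75392512). It had 15.84, 13.95 and 14.98 TPM in the mimic, negative-control and knockout libraries, against 16.95 TPM in the wild-type library. Knockout to wild type was -0.04 (-0.18 to 0.11), an interval that includes 0. The mimic ratio of this gene, which holds a 7-base match, was 0.19 (0.05 to 0.33) to the negative control and 0.04 (-0.10 to 0.18) to the knockout.

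Ltbp3, which binds latent TGF-beta and is known from bone and tooth development, was lower in all 3 libraries of knockout cells (16998, chr19:5740900-5758536). It stood at 77.15 TPM in the mimic, 76.44 TPM in the negative-control and 83.5 TPM in the knockout library, against 136.81 TPM in the wild-type library. The ratio of knockout to wild type was -0.59 (-0.65 to -0.53), or 0.665-fold, and mimic to negative control was -0.004 (-0.07 to 0.07). Annotated genes that overlap exons of Ltbp2, Tgfb2 and Tgfb3 on the opposite strand, and of Tgfbr3 on the same strand, were not among the genes analysed here, and without stated strand use reads of genes on opposite strands cannot be told apart.

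Ltbp4, a binding protein needed for elastic fibre assembly, had the lowest levels of the 10 genes in the knockout cells (108075, chr7:27305140-27339720). It had 9.58 TPM in the mimic, 8.75 TPM in the negative-control and 9 TPM in the knockout library, from 453, 441 and 414 counts, against 21.82 TPM and 921 counts in the wild-type library. The 3 libraries of knockout cells lay together below the wild-type library. Knockout to wild type was -1.14 (-1.31 to -0.97), 0.453-fold, with 10.4% of measured genes at least as far from 0, and mimic to negative control was 0.13 (-0.06 to 0.33).

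In the comparison of knockout and wild type, 2 of the 10 genes were called, Tgfbr3 and Ltbp4, both lower. Of 12803 measured genes 12.9% were called, 7.01% as lower and 5.9% as higher, and with 10 genes a count of 2 lies near that background. At 1.5-fold, 5 of 10 were past the limit, Tgfbr1 and Ltbp2 higher and Tgfbr3, Ltbp3 and Ltbp4 lower, against 24.5% of measured genes, 11.3% higher and 13.2% lower. Ltbp2 and Ltbp3 lay close to the 1.5-fold limit, and each fell short of it under another scaling. The median ratio of the 10 genes was -0.15, against 0.01 for all measured genes. In this pair of libraries the 12 fibroblast markers had a median of -0.99 with 6 called lower, and the 15 macrophage markers a median of 1.10 with 9 called higher. Their part in the ratios of the 10 genes was not tested.

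**Figure D2:**
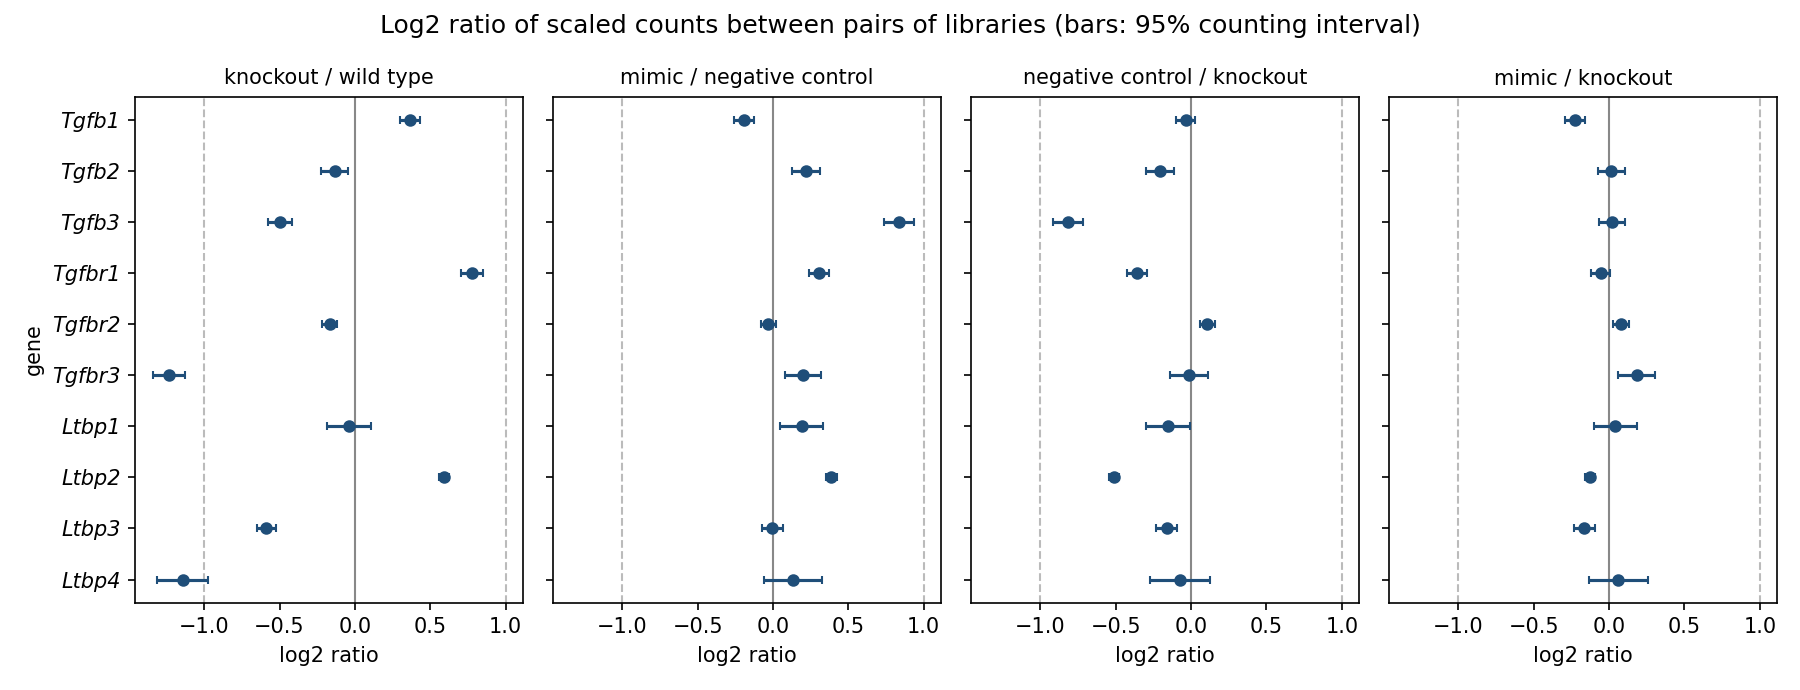
Log2 ratio of scaled counts for each gene (points) in 4 pairs of libraries, with 95% counting intervals (bars) and dashed lines at 2-fold. Points past the dashed lines appear in the knockout to wild-type panel alone, for Tgfbr3 at -1.23 and Ltbp4 at -1.14.

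Whether the difference from wild type held in the transfected knockout cells too was read from their scaled counts. The wild-type library lay outside the range of the 3 libraries of knockout cells for 9 of the 10 genes, above it for 6 and below it for 3, with Ltbp1 inside. The same held for 78.1% of 12876 genes, with wild type above for 37.8% and below for 40.3%. For Tgfb1, Tgfbr1, Tgfbr3, Ltbp3 and Ltbp4 the distance between wild type and the mean of the knockout cells was larger than the whole range among the knockout cells, as for 58.6% of those genes. That distance was -1.18 for Tgfbr3, against a range of 0.20, and -1.15 for Ltbp4, against 0.14. Tgfb3 had a distance of -0.76 and a range of 0.84, so that its spread among libraries of the same genotype was wider than its distance from wild type.

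**Figure D3:**
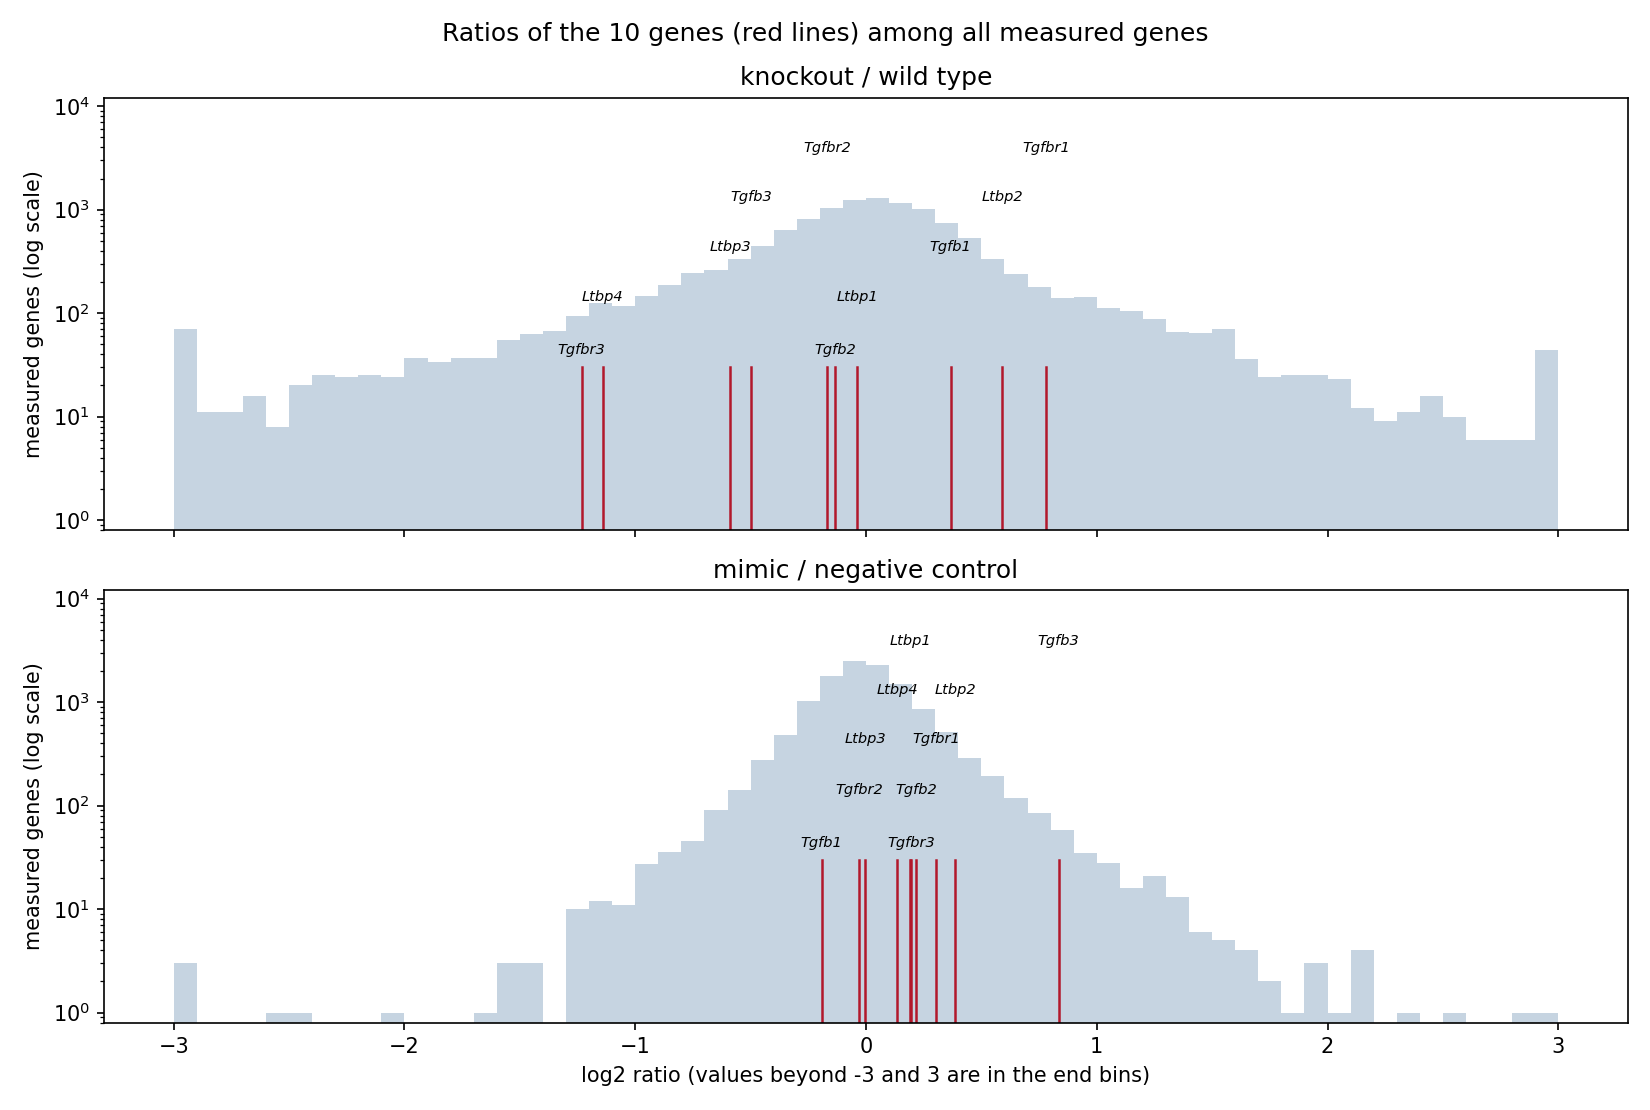
Measured genes by log2 ratio (log count axis, bins of 0.1) for knockout to wild type and mimic to negative control, with red lines at the 10 genes. Tgfbr3 and Ltbp4 lie in the lower tail of the upper panel, and Tgfb3 at 0.83 is the member farthest from 0 in the lower panel.

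None of the 10 genes was called between mimic and negative control, where 1.21% of 12512 measured genes were, 0.855% higher and 0.352% lower. At 1.5-fold 1 was past the limit, Tgfb3, higher in the mimic library, against 4.56% of measured genes, 2.87% higher and 1.69% lower. Ratios were above 0 for 7 of the 10 genes, with a median of 0.19 against -0.01 for all measured genes.

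Between negative control and knockout no member was called either, against 1.01% of measured genes, 0.295% higher and 0.718% lower. There 9 of 10 ratios were below 0, with a median of -0.16, and 1 gene, Tgfb3, was past 1.5-fold, lower in the negative-control library, against 3.69% of measured genes, 0.981% higher and 2.71% lower. Between mimic and knockout again none was called, against 0.734% of measured genes, 0.263% higher and 0.471% lower. Of those ratios 6 were above 0 and 4 below, with a median of 0.02, and none passed 1.5-fold, against 2.92% of measured genes, 1.12% higher and 1.79% lower. These 3 pairs are drawn from 3 libraries, so each library enters 2 of them and the pairs are not independent.

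The makeup of each class differed between libraries as well, on the TPM scale. Tgfb1 made up 62.5% of summed ligand TPM in the mimic, 74.0% in the negative-control, 66.4% in the knockout and 54.2% in the wild-type library. Tgfb3 made up 23.7%, 13.8%, 21.2% and 31.5% in the same order. The ligands summed to 308, 296 and 329 TPM in the mimic, negative-control and knockout libraries and 342 TPM in the wild-type library, so their total differed less than their proportions.

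Receptors kept Tgfbr2 as the main transcript, with 60.4%, 65.4% and 58.9% of receptor TPM in the mimic, negative-control and knockout libraries and 63.9% in the wild-type library. Tgfbr3 held 7.61% in the knockout and 17.3% in the wild-type library, and Tgfbr1 held 33.4% and 18.8%. Tgfbr2 exceeded Tgfbr1 1.76-fold in the knockout and 3.40-fold in the wild-type library, with 1.93-fold in the mimic and 2.44-fold in the negative-control library. The pair of signalling receptors was thus closer to equal transcript levels in knockout cells.

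Among latent binding proteins, Ltbp2 held 70.6% of TPM in the knockout and 51.7% in the wild-type library, and Ltbp3 held 22.8% and 37.7%. Ltbp1, Ltbp3 and Ltbp4, the members known to bind latent TGF-beta, summed to 107 TPM in the knockout library, against 176 TPM in wild type. Set against the summed ligands, that was 0.327 TPM per ligand TPM in the knockout and 0.513 in the wild-type library, with 0.333 in the mimic and 0.335 in the negative-control library. The ratio was nearly the same in the 3 libraries of knockout cells, which share a genotype but are 1 library each.

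**Figure D4:**
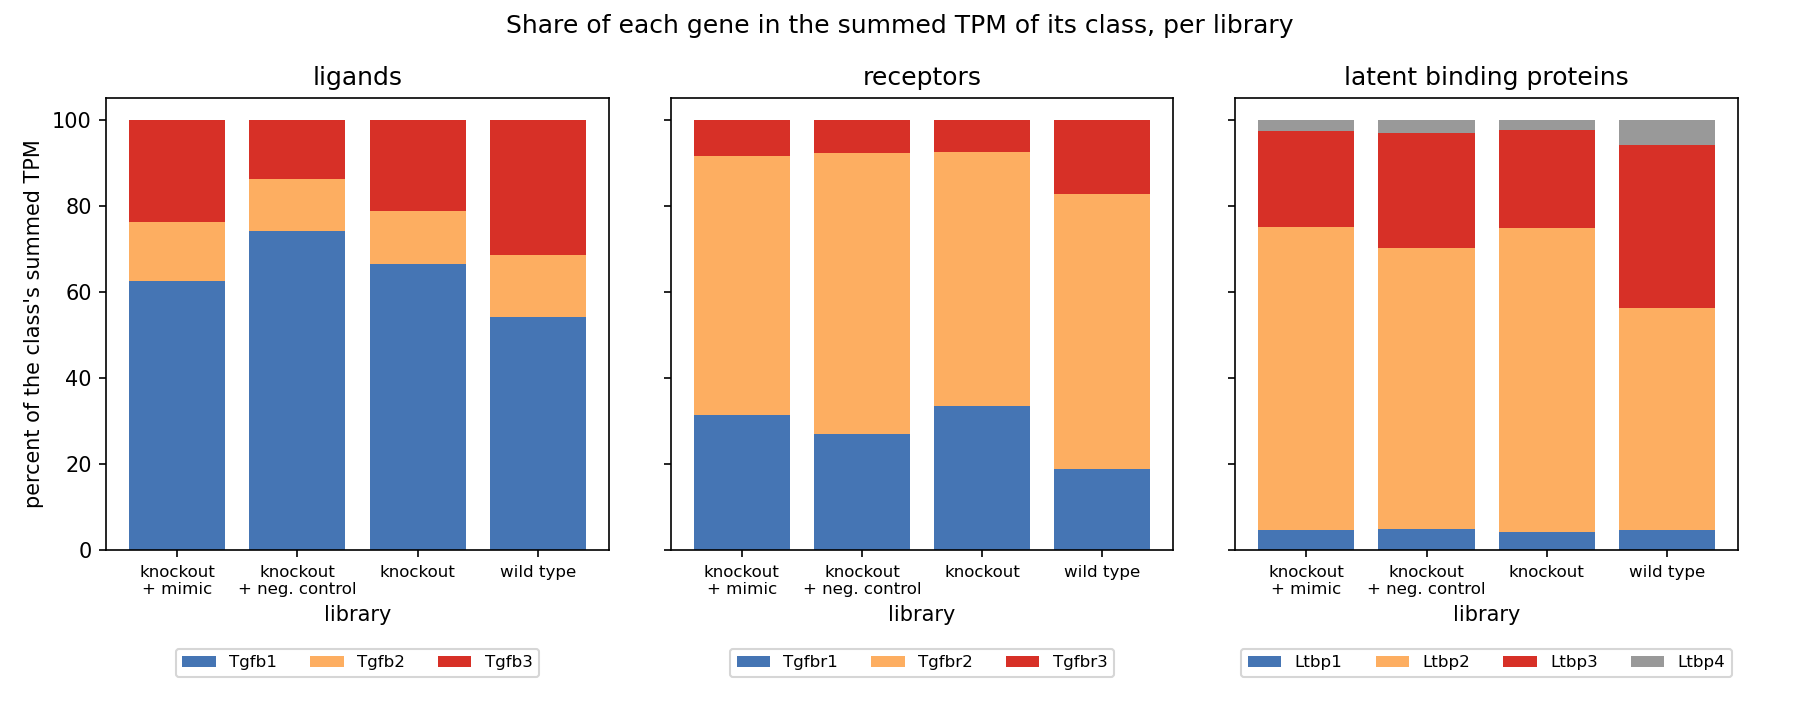
Stacked bars of the percent each gene holds in the summed TPM of its class, with 1 bar per library. Wild type has the largest Tgfb3, Tgfbr3, Ltbp3 and Ltbp4 parts, for example 17.3% for Tgfbr3 against 7.61% in the knockout library.

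Genes that act around these 10 were taken from 6 lists. They were put together with earlier results of these data known. The list for activation and storage of the latent complex had 20 measured genes of 22, of which 1 was called higher and 4 lower between knockout and wild type, with a median of -0.29. Of all measured genes 5.9% were called higher and 7.01% lower in this pair. Mmp9 and Mmp2, gelatinases that can release TGF-beta, had ratios of -3.90 (-4.48 to -3.45) and -1.84 (-1.88 to -1.80), and Fbn2, a fibrillin of microfibrils, had -2.60 (-2.81 to -2.40). The fourth lower gene was Mmp14, a membrane protease, at -1.02, which was not called with total-count scaling, and the higher one was Nrros, which anchors latent TGF-beta on myeloid cells, at 1.13. Nrros and Mmp14 were named after their values were seen. Nrros had 118.41, 124.54 and 104.46 TPM in the mimic, negative-control and knockout libraries, against 52.79 TPM in the wild-type library, where summed macrophage markers were also lowest.

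Between mimic and negative control the same list had 2 called genes, both higher, and its median was 0.04, while 1.21% of all measured genes were called and 0.855% were called higher. Fbn1, the fibrillin that holds LTBP complexes, had 382.61 TPM in the mimic and 101.48 TPM in the negative-control library, a ratio of 1.90 (1.87 to 1.94). Itgb8, an integrin subunit that activates latent TGF-beta, had a ratio of 1.25 (0.87 to 1.66). Like Tgfb3, both were lowest in the negative-control library, with Fbn1 at 345.29 TPM and Itgb8 at 6.19 TPM in the untransfected knockout cells.

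Other receptors of the superfamily had knockout to wild-type ratios below 0 for 9 of 11 measured genes, with a median of -0.31, and 1 was called lower, against 7.01% of all measured genes. That one was Acvr2a, an activin type II receptor, with 13.56 TPM in the knockout library, against 30.39 TPM in wild type, a ratio of -1.03 (-1.17 to -0.91). With total-count scaling it was not called. Bmpr1a, a BMP type I receptor, stood at -0.77 (-0.85 to -0.68), and Bambi, a decoy receptor, at -0.42 (-0.89 to 0.04). Mimic to negative control was 0.96 (0.81 to 1.12) for Acvr2a and 0.26 (0.18 to 0.34) for Bmpr2, the BMP type II receptor. To the knockout library the mimic ratio was 0.44 (0.30 to 0.58) for Acvr2a and 0.14 (0.06 to 0.22) for Bmpr2. Between mimic and negative control none of the list was called, against 1.21% of all measured genes, with a median of 0.20.

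No SMAD gene was called in either comparison, with 8 of 8 measured. Of all measured genes, 12.9% were called between knockout and wild type and 1.21% between mimic and negative control. The SMAD medians were 0.04 between knockout and wild type and 0.15 between mimic and negative control. The inhibitory Smad7 and Smad6, both induced by the signal they block, had knockout to wild-type ratios of 0.73 (0.56 to 0.90) and 0.64 (0.49 to 0.80), and Smad5, which transmits BMP signals, had -0.75 (-0.86 to -0.63). Smad2, a direct substrate of Tgfbr1, had a mimic to negative-control ratio of 0.47 (0.36 to 0.59). Smad1, a BMP effector, had -0.45 (-0.64 to -0.25). To the knockout library the mimic ratio was 0.03 (-0.08 to 0.14) for Smad2 and -0.33 (-0.54 to -0.12) for Smad1. Of 15 SMAD regulators 1, Tgif2, was called lower between knockout and wild type, at -1.25, against 7.01% of all measured genes, and it too was named after its value was seen. The medians of that list were -0.12 between knockout and wild type and 0.18 between mimic and negative control. In the latter pair none was called, against 1.21% of all measured genes. Between knockout and wild type, Skil, a feedback repressor, stood at 0.59 (0.47 to 0.71), and Ski, its relative, at -0.46 (-0.52 to -0.40). Zfyve9, which recruits SMAD proteins to the receptor, had -0.45 (-0.63 to -0.27) there and 0.64 (0.46 to 0.83) between mimic and negative control. Usp15, a deubiquitinase, had 0.43 (0.31 to 0.56) between mimic and negative control. Mimic to knockout was 0.37 (0.19 to 0.55) for Zfyve9 and -0.25 (-0.37 to -0.14) for Usp15.

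Proteins that bind or restrain TGF-beta outside the cell had a median of -0.58 over 7 measured genes between knockout and wild type, with 1 called lower, against 7.01% of all measured genes. Aspn, asporin, had 32.13 TPM in the knockout library, against 207.04 TPM in wild type, a ratio of -2.55 (-2.68 to -2.44). Bgn, biglycan, and Vasn, vasorin, stood at -0.95 (-0.96 to -0.93) and -0.80 (-0.89 to -0.72). For mimic to negative control the median was 0.35 and none was called, against 1.21% of all measured genes. Fst, the activin antagonist follistatin, stood at 0.58 (0.44 to 0.73) and Vasn at 0.56 (0.47 to 0.66). To the knockout library the mimic ratio was -0.12 (-0.25 to 0.01) for Fst and 0.35 (0.26 to 0.44) for Vasn.

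Genes known as TGF-beta targets went both ways between knockout and wild type, with 4 of 26 called higher, 7 lower and a median of -0.31. Over all measured genes 12.9% were called, 5.9% higher and 7.01% lower, with a median of 0.01. Id1, an inhibitor of differentiation that also responds to BMP, had 89.35 TPM in the knockout library, against 12.66 TPM in wild type, a ratio of 2.96 (2.63 to 3.33). The other higher genes were Acta2 and Tagln, which encode contractile proteins of myofibroblasts, and Inhba, an activin subunit. Lower were Angptl4 at -3.03 (-3.42 to -2.69), Comp, a matrix protein of cartilage and tendon, at -2.48 (-2.55 to -2.40), and the matrix genes Tnc, Col3a1 and Postn, the collagen-binding integrin Itga11 and the oxidase Nox4, between -1.65 and -1.09. Apart from Id1, Angptl4, Comp and Tnc, these called targets were named after their values were seen. Col1a1 and Col3a1 stand in the fibroblast marker list as well, as does Dcn of the extracellular inhibitors. Between mimic and negative control 1 target was called, against 1.21% of all measured genes, with a median of 0.21 over the list. It was Tnc, tenascin-C, higher at 1.67 (1.61 to 1.73), while Plod2, a collagen lysyl hydroxylase, was the lowest, at -0.84 (-0.91 to -0.77). Tnc was lowest in the negative-control library, at 43.85 TPM, against 142.79 TPM in the mimic and 96.98 TPM in the knockout library. Mimic to knockout was 0.50 (0.45 to 0.54) for Tnc and -0.83 (-0.90 to -0.76) for Plod2.

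**Figure D5:**
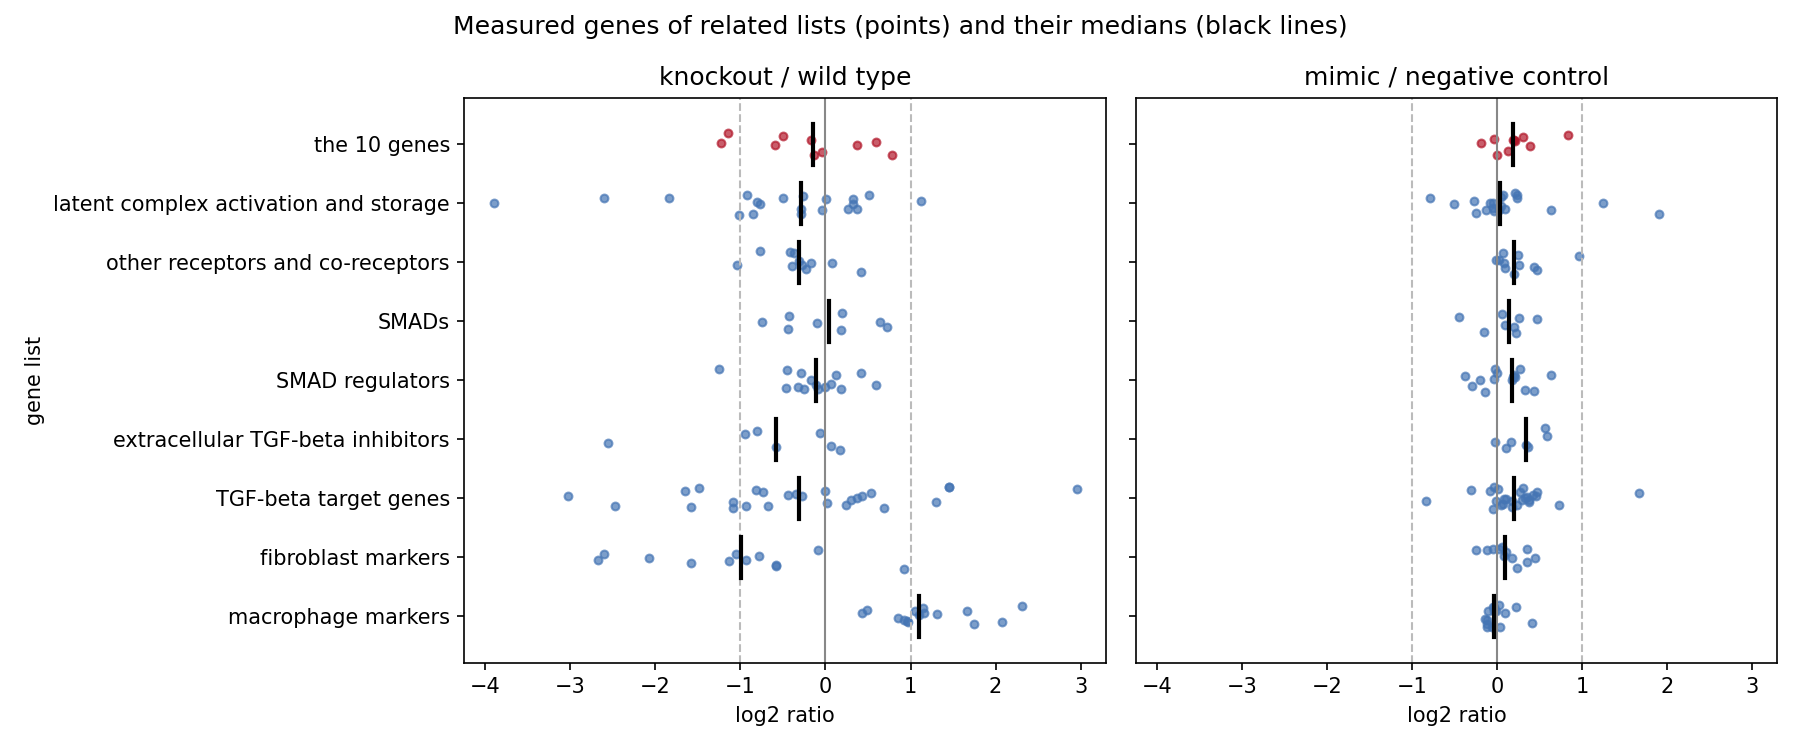
Log2 ratios of the 10 genes (red), of 6 lists of related genes and of fibroblast and macrophage markers (blue), each point 1 measured gene and each black line a median, with dashed lines at 2-fold. Fibroblast markers center on -0.99 and macrophage markers on 1.10 between knockout and wild type, and on 0.09 and -0.04 between mimic and negative control.

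The genes whose pattern over the 4 libraries was most like that of the 3 most variable members were found by the distance between centred log2 CPM values, among 10010 genes with a mean of at least 5 TPM, leaving out predicted and clone names. For Tgfb3 they were Adgrd1, an adhesion receptor, at 0.0450, Hif1a, a transcription factor of the hypoxia response, at 0.0846 and Clec2d, a lectin, at 0.104. For Tgfbr3 they were the transcription factors Zfhx4 at 0.0205 and Tbx15 at 0.0553 and the hedgehog co-receptor Boc at 0.0689. For Ltbp4 they were the secreted protein Srpx2 at 0.0291 and the transcription factors Ebf1 at 0.0526 and Gli3 at 0.0632. Hif1a had 149.02, 86.62 and 148.21 TPM in the mimic, negative-control and knockout libraries, against 239.27 TPM in the wild-type library. With 4 libraries many genes lie close to any pattern, so these distances describe the libraries only.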

How the data were processed

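RNA sequencing gave 4 libraries, 1 per group as labelled. Per the submitters' processing notes, FastQC, HISAT and Bowtie2 were used with GRCm38.p6 and mm10. No source used here names the quantifier, its annotation or strand use. The authors deposited estimated counts, of which about 5% have decimals and which were rounded for intervals, TPM, FPKM and counts divided by size factors, a signal not used here, as FPKM were. PoissonDis comparisons were deposited by the authors too, as log2 ratios with p-values and FDR, per the file headers.

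Counts were scaled with edgeR 4.0.16 TMM factors (R 4.3.3), with a prior of 1 count, and totals ranged from 17598763 to 19392655. Genes were measured at 1 CPM or more in either library. Intervals are exact conditional binomial (Clopper-Pearson) at 95%, computed with scipy 1.17.1. Reads are not independent molecules, so intervals cover counting error only. DESeq2 1.42.0 size factors, total counts, deposited TPM, other filters, priors and a 1.5-fold limit were alternatives. The ratio, interval and call rule were checked on simulated counts scaled by library totals, and TMM scaling and the other steps were not part of that check. Date-like symbols of 26 genes were restored through the Entrez identifier. The members, lists and rules were chosen with earlier results of these data known. Named were all 10 members, and in each list the 3 largest absolute ratios between knockout and wild type at 5 TPM or more. The 2 largest between mimic and negative control at 5 TPM or more were named too. So were the 4 most abundant fibroblast and macrophage markers, and the 3 genes nearest to each of the 3 most variable members. Other called genes of the lists were named after their values were seen.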

Additional observations from a re-analysis of the deposited data

How the results depend on the processing

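With a limit of 1.5-fold in place of 2-fold, the number of the 10 genes called was 5 for knockout to wild type, 1 for mimic to negative control and 1 for negative control to knockout. For knockout to wild type, Ltbp2 was at 0.580 with DESeq2 size factors and 0.463 on TPM, short of 1.5-fold. Ltbp3 was at -0.55 under total counts, also short of 1.5-fold. The numbers called at 2-fold in the 4 comparisons stayed as reported under the other settings. These were DESeq2 size factors, total counts, deposited TPM, a limit of 5 CPM, no filter and a prior of 0.25 count. Deposited TPM moved the median ratio of all genes between knockout and wild type by -0.123, and the largest move of a member's ratio under any scaling was 0.138, also on TPM. Over the 4 comparisons, 10 member ratios on TPM lay outside their counting interval and 30 inside. Among those outside was Tgfb1 for knockout to wild type, at 0.234 on TPM. Under total counts 2 lay outside, both of them Ltbp2, at 0.628 for knockout to wild type and 0.3528 for mimic to negative control. Members whose sign differed under another scaling were not called and lay near 0. These were Ltbp3 for mimic to negative control, at 0.002 with DESeq2 size factors and 0.0133 on TPM, and Tgfb1 and Tgfbr3 for negative control to knockout, at 0.0028 and 0.02 on TPM, with Tgfbr3 at 0.0115 under total counts. As shares of counts, which are not per length, Tgfb1 held 45.9%, 58.0% and 50.2% of ligands in the mimic, negative-control and knockout libraries and 38.2% in the wild-type library. Tgfbr2 held 55.2%, 60.4% and 53.7% of receptors and 58.5%, and Ltbp2 77.2%, 72.7% and 77.4% of latent binding proteins and 60.5%, in the same order. With total-count scaling 0 receptors of the superfamily list were called between knockout and wild type. The count for activation and storage of the latent complex was 4 there, in place of 5, without Mmp14. No paired analysis was possible because each group holds 1 library, and no library could be left out for the same reason. Ltbp4 and Ltbp1 had the fewest counts and the widest intervals.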

Other observations

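The log2 ratios in the authors' deposited table equal the ratio of unscaled estimated counts, within 0.001, for the 14604 genes that have a ratio there and counts above 0 in both the negative-control and the knockout library. In the authors' deposited table Ltbp3 therefore has a log2 ratio of 0.003 between negative control and knockout, where scaled counts gave -0.16. Tgfb1 has 0.13 there, where scaled counts gave -0.04. The authors' deposited table also compares mimic-transfected knockout cells with wild type, with log2 ratios of 0.78 for Tgfbr1, -0.99 for Tgfbr3 and -1.02 for Ltbp4. For knockout over wild type, the authors' deposited table has 0.77 for Tgfbr1, -1.24 for Tgfbr3 and -1.15 for Ltbp4. Its false discovery rates compare 1 library per group, so they cover counting error only and are not given here.

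The passenger strand of the mimic, as the labels give it, differs from RefSeq's mmu-miR-26a-1-3p at 1 base, A14C, with positions counted from 1 at the 5′ end and the RefSeq base first.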
